A study of Mus musculus with 13 samples.

Results

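The transcription factors of hemogenic endothelium and early blood were followed by gene symbol through every library: *Tal1*, *Lmo2*, *Gata2*, *Runx1*, *Hhex*, *Gata1*, *Klf1*, *Gfi1b*, *Spi1* and *Myb*. These 10 genes were found among the 24984 genes listed for the tumor libraries and among the 24421 genes listed for the sprout libraries. The question put to the data was whether their RNA differed with Apelin, a peptide ligand of blood vessels, in 2 kinds of endothelial cells (ECs). Tumor ECs were sorted as CD45-, CD31+ and CD105+ cells, 100 cells to a library, from E0771 mammary carcinomas grown in C57BL6/J mice. The KO libraries (n = 3) came from Apln-/- mice that received E0771 cells with an shRNA against *Apln*, and the WT libraries (n = 6) from wild-type mice that received E0771 cells with a control shRNA against *Renilla* luciferase. Apelin was therefore removed from host and tumor cells together, and the age of the mice is not given in the sources used here. Sprout ECs were CD31+ cells sorted from embryoid bodies of female mouse embryonic stem cells (C57BL/6x129) sprouting in collagen with 30 ng/mL VEGFA164. The cells carried a gene trap in *Apln*. The STOP libraries (n = 2) held it in the sense, disruptive orientation, and the GO libraries (n = 2) in the antisense, repaired orientation, obtained with a retrovirus encoding Cre and mCherry. According to the methods and legends, STOP sprouts received DMSO and GO sprouts received Apelin (1000 nM), so genotype, viral Cre and added Apelin differed together and cannot be told apart. The sprouts derive from sister cells of a single gene-trap line. The study's legends count the tumor groups by tumors in mice, while nothing in the sources used here says that the sprout libraries of a group came from separate cultures, so the sprout p-values may measure technical spread only.

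Hemogenic endothelium is the small part of the embryonic endothelium that gives rise to blood cells. *Tal1*, *Lmo2* and *Gata2* encode proteins that sit in a common DNA-binding complex and act from the earliest blood and vessel progenitors onwards, while *Runx1* is required for endothelial cells to turn into blood cells. *Gata1*, *Klf1* and *Gfi1b* then act in red cells and platelet precursors, *Spi1* (PU.1) in myeloid cells and *Myb* in blood progenitors. Several of these factors, *Tal1*, *Lmo2* and *Gata2* among them, remain expressed in mature endothelium, which has no blood-forming activity.

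The tumor libraries held 4661044 to 14455093 counts and the sprout libraries 12327030 to 16804071. Expression is given as CPM, the count of a gene scaled to a common library total, and 3 counts, the limit that a count of 0 allows, corresponded to 0.211 to 0.596 CPM in tumor ECs and to 0.177 to 0.244 CPM in sprout ECs, for counting error only. The targeted gene followed the labels in the tumor libraries, where *Apln* was at 7.67 CPM in KO and 796 CPM in WT (log2 fold change −6.70, SE 0.59, edgeR adjusted p = 6.1e-05). In the sprout libraries it did not: *Apln* was at 73.1 CPM in the libraries labelled STOP and 62.1 CPM in those labelled GO (log2 fold change 0.24, SE 0.16, edgeR adjusted p = 0.367). The *Apln* counts therefore go against the labels or do not detect the trap, which was not tested, and each direction between STOP and GO given here rests on the labels. The study reports *Apln* RT-qPCR and sprouting assays of these lines, which run the way the labels say. Those measurements were not analysed here. Endothelial identity also differed between the sets. The 12 endothelial marker genes summed to 7292 to 13985 CPM in tumor ECs, but to 667 and 878 CPM in the libraries labelled STOP and 2660 and 2412 CPM in those labelled GO. The 8 pluripotency genes, *Pou5f1* and *Nanog* among them, summed to 5553 and 5419 CPM in STOP and 2077 and 3497 CPM in GO, against at most 6.35 CPM in any tumor library. CD31 (*Pecam1*), the sorting marker, is also made by mouse embryonic stem cells.

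The promoters of the members are shown because several members shifted together in the sprouts. RefSeq (GRCm38.p6, the build of the files) gave 11 promoter windows for 8 members, with no entry matched for *Lmo2* and *Spi1*. The 250 bases before each start site were searched whole, on both strands, for GATAA (bound by GATA factors), CAGNTG (the E-box bound by Tal1 with its E-protein partners), GGAAG (ETS factors) and TGTGGT (Runx factors). A set of 4 windows of 3 members with lower counts in STOP are printed 5′ to 3′ on the gene's strand, less any base in an annotated exon, with matches on either strand in capitals. Other windows are not printed, among them the proximal *Runx1* window (chr16:92697330-92697579, minus strand) and the *Gata2* windows, which held no match. The upstream *Tal1* window (chr4:115056176-115056425, plus strand) held GATAA on the other strand, 205 bases before the start, and the downstream *Tal1* window (chr4:115057561-115057810, plus strand) held GGAAG at 30 bases. The *Hhex* window (chr19:37434591-37434809, plus strand) held GGAAG at 96 bases, and the distal *Runx1* window (chr16:92826150-92826324, minus strand) held CAGNTG at 167 and 136 bases and GGAAG at 123 bases.
Tal1 upstream: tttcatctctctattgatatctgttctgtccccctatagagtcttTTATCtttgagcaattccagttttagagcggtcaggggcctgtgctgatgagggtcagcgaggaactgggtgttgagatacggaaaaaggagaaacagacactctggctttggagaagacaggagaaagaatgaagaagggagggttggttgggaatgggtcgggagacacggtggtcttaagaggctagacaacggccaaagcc
Tal1 downstream: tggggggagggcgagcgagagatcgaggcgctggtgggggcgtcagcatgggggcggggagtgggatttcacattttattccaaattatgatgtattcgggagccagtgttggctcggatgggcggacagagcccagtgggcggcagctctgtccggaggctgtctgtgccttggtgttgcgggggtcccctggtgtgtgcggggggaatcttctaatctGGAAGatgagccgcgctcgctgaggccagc
Hhex: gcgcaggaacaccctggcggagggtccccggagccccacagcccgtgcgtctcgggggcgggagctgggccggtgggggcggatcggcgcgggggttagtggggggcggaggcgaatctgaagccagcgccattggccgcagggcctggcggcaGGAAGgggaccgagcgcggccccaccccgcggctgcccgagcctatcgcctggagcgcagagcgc
Runx1 distal: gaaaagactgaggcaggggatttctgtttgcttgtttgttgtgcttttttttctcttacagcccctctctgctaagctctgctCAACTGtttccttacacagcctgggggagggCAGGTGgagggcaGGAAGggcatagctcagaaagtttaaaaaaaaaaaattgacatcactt

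These matches were not unusual in frequency, and they describe letters, not binding. GATAA was found in 3 of the 11 windows and in 22.6% of the 32851 windows of all genes. CAGNTG was found in 2 of the 11, against 44.8% of all windows, GGAAG in 5, against 64.1%, and TGTGGT in 1, against 14.0%. The genes themselves lie at chr4:115056426-115071755 (*Tal1*), chr2:103957903-103981878 (*Lmo2*), chr6:88193891-88207032 (*Gata2*), chr16:92601466-92826074 (*Runx1*), chr19:37434841-37440731 (*Hhex*), chrX:7959260-7976663 (*Gata1*), chr8:84901982-84905291 (*Klf1*), chr2:28609450-28621982 (*Gfi1b*), chr2:91082374-91115759 (*Spi1*) and chr10:21124930-21160984 (*Myb*). *Tal1*, *Lmo2*, *Gata2*, *Runx1*, *Gata1* and *Gfi1b* overlap predicted RefSeq genes that the count tables do not list, and the sources used here do not say whether strand was used in counting, so reads from those predicted genes could be included.

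In sprout ECs, 4 of the blood and vessel factors were lower in STOP than in GO. *Tal1* was 5.73-fold, *Lmo2* 4.82-fold, *Runx1* 3.21-fold and *Hhex* 3.00-fold lower in STOP, and these 4 members passed the thresholds of adjusted p under 0.05 and an absolute log2 fold change above 1. None was higher. Of all 14557 genes tested, 3.03% passed in this direction and 0.852% in the other. Enough counts for a test were available for 9 members, of which 8 were lower in value and 1 higher. The median of their log2 fold changes was −1.58, against 0.01 over all genes tested. Before adjustment, 7 members had p under 0.05 with lower values in STOP, as 14.3% of all genes did, and 0 with higher values, against 12.4%. In 8 of the 9 tested members every STOP library lay below every GO library, which 29.6% of all genes also did, and in 0 above, against 31% of all genes. In these bulk libraries, fewer cells of a type and less RNA per cell cannot be told apart.

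**Figure D1:**
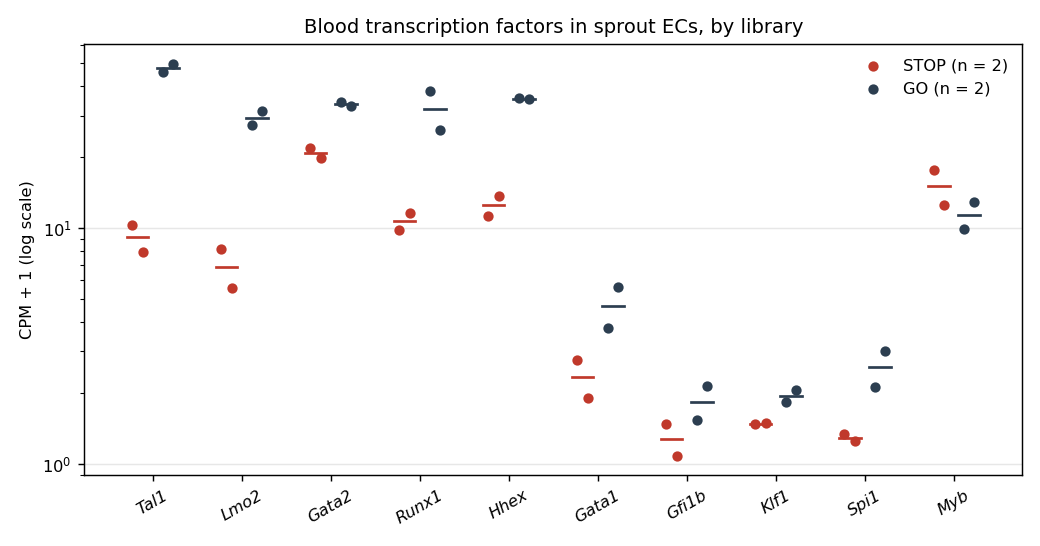
CPM + 1 on a log scale for the 10 blood transcription factors in each sprout EC library (points), with group means as bars, for STOP (n = 2) and GO (n = 2). *Tal1* lies at 6.92 and 9.35 CPM in STOP and at 44.8 and 48.8 CPM in GO, whereas the *Myb* values of the groups overlap.

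The Tal1 and Lmo2 proteins bind each other, Lmo2 serving as a bridge without contacting DNA itself. *Tal1* had 9.35 and 6.92 CPM in the STOP libraries and 44.8 and 48.8 CPM in the GO libraries, from 138, 85, 759 and 605 counts. The groups were far apart, with a log2 fold change of −2.52 (SE 0.21, edgeR adjusted p = 0.00242). *Lmo2* had 7.11 and 4.56 CPM in STOP and 26.3 and 30.3 CPM in GO. It too was separated without overlap, with a log2 fold change of −2.27 (SE 0.27, edgeR adjusted p = 0.00621). With each library left out in turn, which leaves 1 library in an arm that is assumed to vary like the other, the log2 fold change ranged from −2.73 to −2.33 for *Tal1* and from −2.61 to −2.0 for *Lmo2*.

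*Gata2*, the GATA factor of hemogenic endothelium and blood stem cells, behaved differently in size. It had 20.8 and 18.9 CPM in STOP and 33.2 and 32.0 CPM in GO. Its groups did not overlap, but the log2 fold change was only −0.71 (SE 0.18) and missed the threshold (edgeR adjusted p = 0.0550).

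*Runx1*, the factor needed for the endothelial-to-blood transition, had 8.80 and 10.6 CPM in STOP and 37.1 and 25.1 CPM in GO. GO replicate 1 was clearly above GO replicate 2, and both were above the STOP libraries (log2 fold change −1.68, SE 0.26, edgeR adjusted p = 0.0133). With 1 library left in an arm, under the same assumption, the log2 fold change was −1.54 without STOP replicate 1 (edgeR adjusted p = 0.0932) and −1.37 without GO replicate 1 (edgeR adjusted p = 0.0767), and neither passed. *Hhex*, a homeobox gene of early endothelium, blood progenitors and foregut endoderm, had 10.2 and 12.7 CPM in STOP and 34.5 and 34.2 CPM in GO. Its replicates lay close together in both groups (log2 fold change −1.58, SE 0.20, edgeR adjusted p = 0.00807), and it was −1.41 without STOP replicate 1, which did not pass (edgeR adjusted p = 0.0538). Most endoderm genes were lower in value as well. The 9 genes of that list summed to 19.0 and 21.3 CPM in STOP and 40.5 and 31.5 CPM in GO. Of 7 tested, 6 were lower and 1 higher in value, and 2 were called lower. *Afp*, the alpha-fetoprotein gene, was among those called (log2 fold change −3.17, edgeR adjusted p = 0.0443). The part of the endoderm genes in the *Hhex* difference was not tested.

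The factors of maturing blood cells were measured at low levels. *Gata1*, the master regulator of red cells and platelets, had 1.76 and 0.896 CPM in STOP and 2.77 and 4.60 CPM in GO. The groups were separate, but the log2 fold change of −1.44 had an SE of 0.50 and did not pass (edgeR adjusted p = 0.124). *Klf1*, an activator of globin genes, had 7 and 6 counts in STOP and 14 and 13 in GO (log2 fold change −0.94, SE 0.59, edgeR adjusted p = 0.343). *Gfi1b*, a transcriptional repressor acting in red cell and platelet precursors, had 7 and 1 counts in STOP and 9 and 14 in GO. These counts were too few to be tested. Of these 3 genes none was called, and of the 2 tested only *Gata1* had p under 0.05 before adjustment. *Spi1*, which drives myeloid fate, had 5 and 3 counts in STOP and 19 and 25 in GO, with a log2 fold change of −2.36 (SE 0.65, edgeR adjusted p = 0.0707). It passed when genes with low counts were kept in the fit (adjusted p = 0.0349).

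*Myb* stood apart from the other members. It had 16.7 and 11.5 CPM in STOP and 8.91 and 11.9 CPM in GO, so the groups overlapped (log2 fold change 0.44, SE 0.28, edgeR adjusted p = 0.350). It was the only tested member whose value was higher in STOP.

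Compared per transcript length, as TPM values (mean ± SD, n = 2), the members of the GO libraries fell into an order led by *Hhex* (30.6 ± 2.67) and *Lmo2* (28.7 ± 1.2), whose library values overlapped. *Tal1* (16.9 ± 0.453) and *Gata2* (15.6 ± 1.71) followed and also overlapped, then *Runx1* (6.88 ± 2.40), *Myb* (4.45 ± 0.255), *Gata1* (3.14 ± 0.856) and *Spi1* (1.86 ± 0.615), and finally *Klf1* (1.07 ± 0.0495) and *Gfi1b* (0.720 ± 0.297), and from *Runx1* on no neighbours overlapped. In STOP, *Hhex* (9.40 ± 1.17) was again first, followed by *Gata2* (8.44 ± 0.813), which overlapped with it, and *Myb* (5.42 ± 1.53). *Lmo2* (5.19 ± 1.51) overlapped with *Myb* in STOP and was above it in GO, and *Tal1* (2.65 ± 0.629) was below *Myb* in STOP and above it in GO.

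The partner genes, 20 genes of blood and endothelial transcription that act with the members, were mostly lower in value in STOP. Of the 19 tested, 17 were lower and 2 higher. In 15 every STOP library lay below every GO library, as in 29.6% of all genes, and in 0 above, against 31%. Of these 19, 8 were called lower in STOP and 0 higher, against 3.03% and 0.852% of all genes. The median of the 19 log2 fold changes was −1.12. Before adjustment, 11 had p under 0.05 in the lower direction and 0 in the higher, against 14.3% and 12.4% of all genes. With 1 library left out, 3 were called without GO replicate 1 and 5 without STOP replicate 1. *Lyl1*, the closest relative of *Tal1*, fell by 2.34 on the log2 scale, from 8.10 CPM in GO to 1.59 CPM in STOP. *Cbfa2t3*, a corepressor in the Tal1 complex, fell by 1.71. Of the ETS factors in the list, *Erg* fell by 2.35, from 51.1 to 10.01 CPM, *Fli1* by 2.03, from 68.1 to 16.7 CPM, and *Ets1* by 1.88, from 343 to 93.3 CPM, while *Etv6* had a log2 fold change of −0.70 and did not pass the fold threshold. *Mecom*, a stem cell and endothelial zinc finger gene, fell by 2.23. The next 4 partners were named for their known roles after their values were seen. *Ldb1*, the scaffold of the Tal1-Lmo2 complex, had a log2 fold change of 0.07 (SE 0.13). *Tcf3*, the E-protein partner of Tal1, had one of −0.18 (SE 0.13), and *Cbfb*, the partner of Runx1, one of −0.24 (SE 0.15). *Zfpm1*, the cofactor of GATA proteins, had one of −0.68 (SE 0.15, edgeR adjusted p = 0.0423). None of these 4 passed both thresholds. *Etv2*, which starts the blood and vessel program in mesoderm, was at 2.80 CPM in STOP and 6.79 CPM in GO (log2 fold change −1.27, SE 0.33, edgeR adjusted p = 0.0597).

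**Figure D2:**
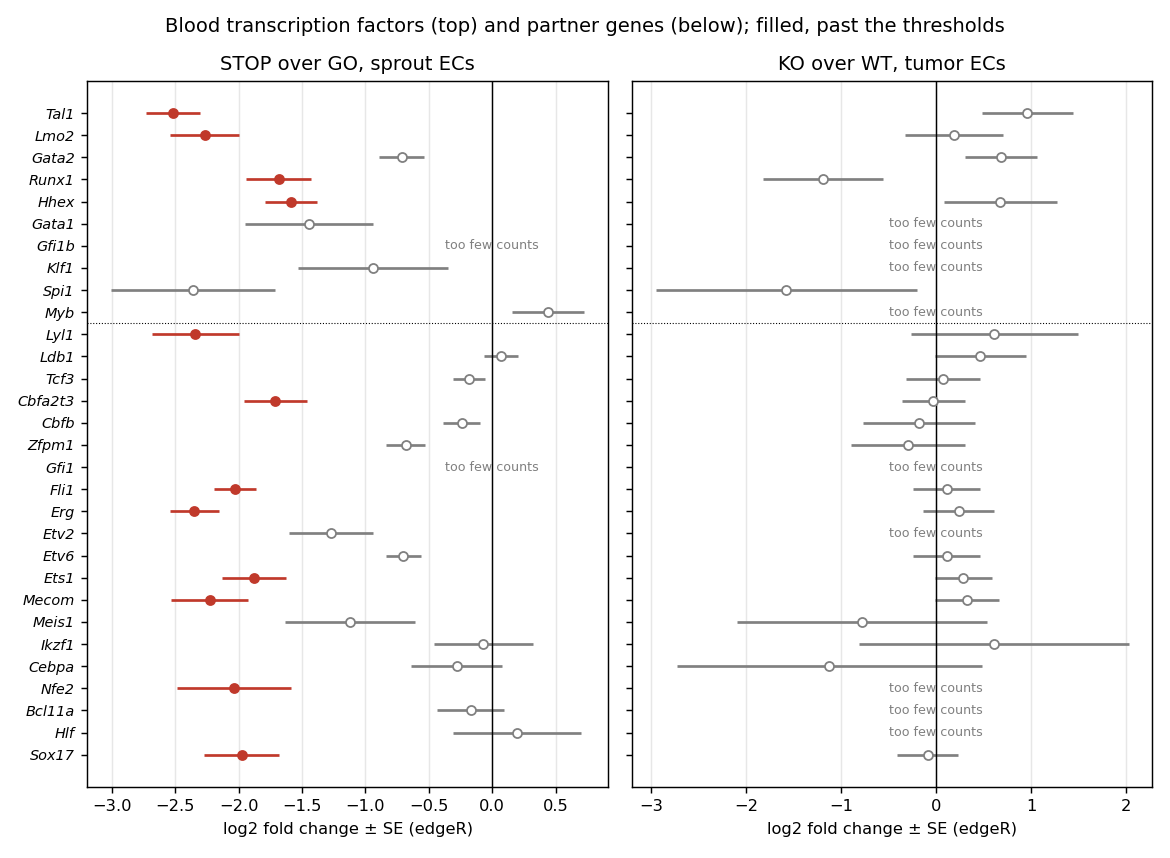
Log2 fold change ± SE from edgeR for the 10 blood transcription factors (above the dotted line) and 20 partner genes, STOP over GO in sprout ECs (left, n = 2 and 2) and KO over WT in tumor ECs (right, n = 3 and 6). Filled red points passed adjusted p under 0.05 and an absolute log2 fold change above 1. In sprouts *Tal1*, *Lmo2*, *Runx1* and *Hhex* are filled, as are 8 partner genes, and in tumors no point is.

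Genes of red cells and platelets were followed as lists. The erythroid list summed to 69.1 and 25.8 CPM in STOP and to 205 and 305 CPM in GO. Of its 8 tested genes, *Alas2*, the heme synthesis enzyme of red cells, passed (log2 fold change −3.30, SE 0.69, edgeR adjusted p = 0.0367), while 6 of the 8 were lower and 2 higher in value in STOP. The embryonic globins made up most of its counts. *Hbb-bh1* had 474 and 113 counts in STOP and 1338 and 2074 in GO, and *Hbb-y* had 119 and 25 in STOP and 912 and 611 in GO. Both STOP libraries lay below both GO libraries but differed several-fold from each other, and neither gene passed (edgeR adjusted p = 0.222 and 0.0828). The adult alpha-globin genes *Hba-a1* and *Hba-a2* are near-identical copies and were listed at 0 in every library of the uniquely assigned counts, whereas the estimated counts that share out such reads gave the pair 230 and 88 in STOP and 1152 and 846 in GO. Their levels are therefore uncertain.

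The megakaryocyte list summed to 10.9 and 5.78 CPM in STOP and 27.0 and 38.5 CPM in GO, and all 4 of its tested genes were lower in value in STOP. All 4 had p under 0.05 before adjustment, and 1 of them, not named here, was called lower. *Itga2b*, the CD41 gene of first blood progenitors and platelets, was at 6.17 CPM in STOP and 23.3 CPM in GO and missed the threshold (log2 fold change −1.90, SE 0.42, edgeR adjusted p = 0.0526). *Cd34* (log2 fold change −1.56) and *Procr* (−1.43) passed among 6 tested progenitor surface genes, and both are also endothelial genes. The leukocyte list was not separated, at 86.3 and 48.8 CPM in STOP and 46.4 and 72.2 CPM in GO. *Fcer1g* (log2 fold change −3.38) was called among its 8 tested genes, and the defining leukocyte gene *Ptprc* had at most 3 counts in a STOP library and 12 in a GO library. Over the erythroid, megakaryocyte, progenitor surface and leukocyte lists, the 5 calls fell to 0 without GO replicate 1 and to 2 without GO replicate 2.

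**Figure D3:**
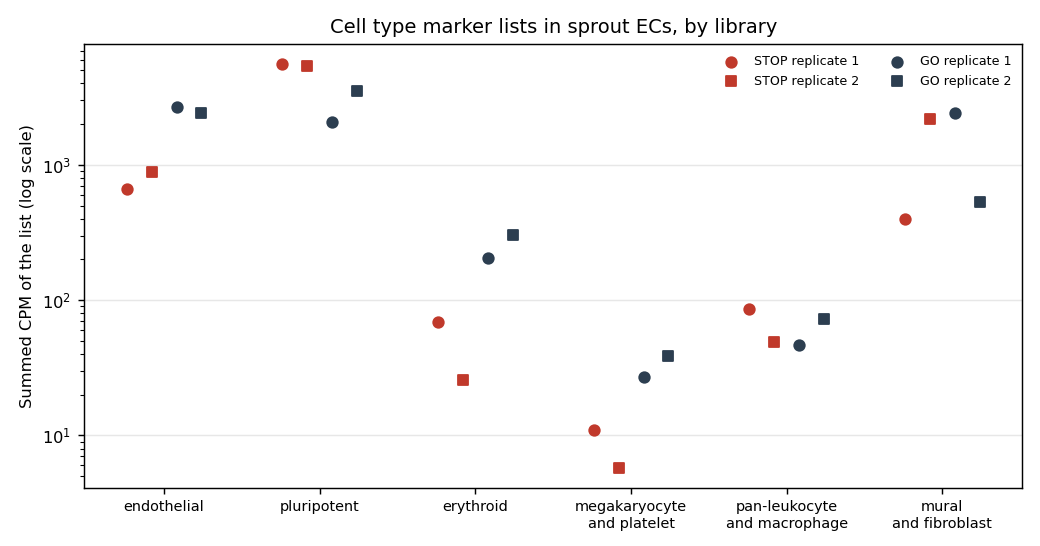
Summed CPM of 6 cell type marker lists in each sprout EC library on a log scale, with circles for replicate 1 and squares for replicate 2. The endothelial list is at 667 and 878 CPM in STOP and 2660 and 2412 CPM in GO, the pluripotency list is higher in STOP, and the mural and fibroblast list differs between replicates of each group.

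The endothelial markers moved with the blood factors. Of the 12, 11 were called lower in STOP, the median log2 fold change being −1.91, and 7 to 11 were called when a single library was left out, the 7 without GO replicate 1. *Cdh5*, encoding VE-cadherin, had a log2 fold change of −1.98, *Kdr*, the VEGF receptor, of −1.95 and *Eng*, encoding CD105, of −1.06. *Pecam1* had a smaller one of −0.80. All 8 pluripotency genes were higher in value in STOP, the median log2 fold change being 0.90, and *Dppa5a* was called (1.28). The mural and fibroblast list stood at 400 and 2186 CPM in STOP and 2433 and 529 CPM in GO, so STOP replicate 1 and GO replicate 2 resembled each other in it. The part of these markers in the members' differences was not tested beyond the ratios that follow.

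Each member was also set against the endothelial genes, as a percent of the summed CPM of the 12 endothelial markers in the same library. That sum was lower in STOP, and so 92.7% of all genes tested had a higher ratio in both STOP libraries than in both GO libraries, and 0.921% a lower one. Of the 9 tested members, 4 were higher in this way, *Gata2*, *Hhex*, *Klf1* and *Myb*, 1 was lower, *Tal1*, and 4 overlapped. *Tal1* was at 1.40% and 0.789% in STOP and at 1.68% and 2.02% in GO, still lower in STOP without overlap. *Lmo2* (1.07% and 0.520% in STOP, 0.987% and 1.26% in GO) and *Runx1* (1.32% and 1.21% in STOP, 1.40% and 1.04% in GO) overlapped between the groups. *Hhex* was slightly higher in STOP, at 1.53% and 1.45% against 1.30% and 1.42%. *Gata2* was at 3.12% and 2.15% in STOP and 1.25% and 1.32% in GO, *Myb* at 2.5% and 1.31% against 0.335% and 0.492%, and *Klf1* at 0.0711% and 0.0557% against 0.0311% and 0.0435%, the direction that most genes took.

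When the edgeR fit was scaled to the same 12 genes, a setting added after the data were seen, the median log2 fold change of all genes rose to 1.74, since this scaling sets the sum of the endothelial markers equal in all libraries. This shift called 85.4% of all genes higher in STOP and 0.117% lower, so a member called higher, or no longer called lower, shows nothing particular to it. None of the members was then called lower and 2 were called higher: *Gata2* (log2 fold change 1.03, SE 0.33, adjusted p = 0.00257) and *Myb* (2.21, SE 0.38, adjusted p = 2.53e-08). Of these, *Gata2* lay below the median of all genes and *Myb* above it. *Tal1* stayed lower in value at −0.76 (SE 0.35, adjusted p = 0.0355) and *Lmo2* at −0.50 (SE 0.38), while *Runx1* (0.05, SE 0.36) and *Hhex* (0.13, SE 0.35) were within their error of 0. The values of *Tal1*, *Lmo2*, *Runx1* and *Hhex* all lay below the 1.74 median of all genes.

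**Figure D4:**
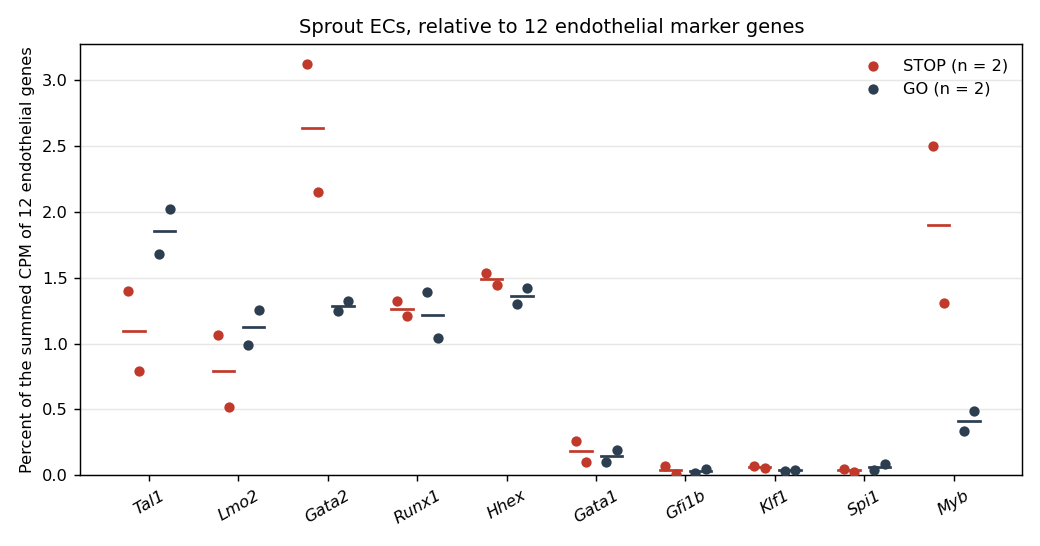
CPM of each blood transcription factor as a percent of the summed CPM of 12 endothelial marker genes in the same sprout EC library (points), with group means as bars, for STOP (n = 2) and GO (n = 2). *Tal1* is below GO in both STOP libraries, *Gata2*, *Hhex*, *Klf1* and *Myb* are above it, as 92.7% of all genes were, and *Lmo2* and *Runx1* overlap.

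In tumor ECs, *Lmo2*, *Gata2*, *Hhex*, *Tal1* and *Runx1* were expressed, and none of the members differed between KO and WT at the thresholds used. A test was possible for 6 members, of which 2 were lower and 4 higher in value in KO. Their median log2 fold change was 0.44, against −0.03 over all 13073 genes tested. With edgeR 0 members were called, and 0 had p under 0.05 before adjustment. DESeq2 and limma voom also called 0. The background was as low: 0.00765% of all genes were called lower, *Apln* alone, and 0% higher, while 2.94% (lower) and 1.87% (higher) had p under 0.05 before adjustment. No tested member had groups without overlap, which 1.27% (lower) and 1.06% (higher) of all genes had.

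**Figure D5:**
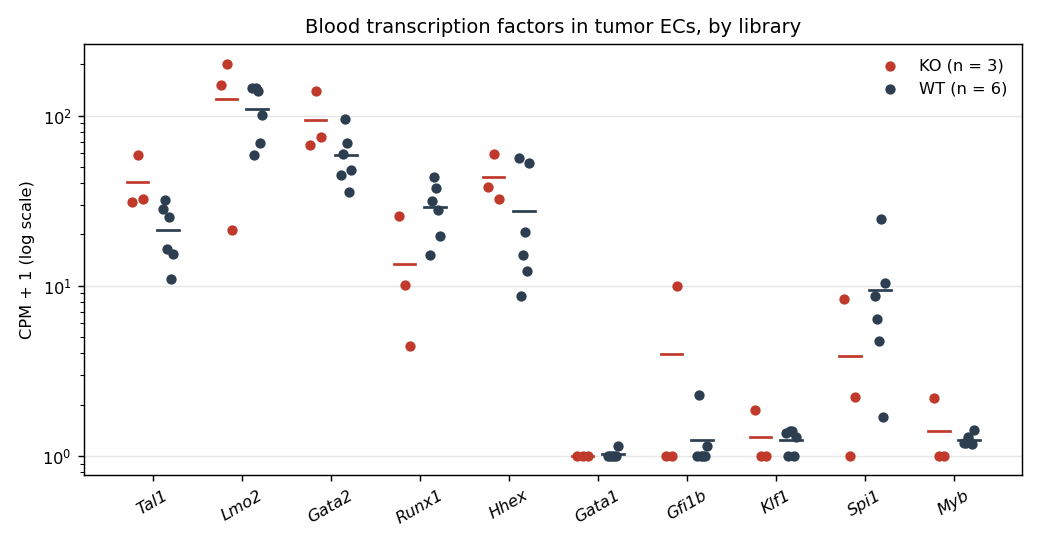
CPM + 1 on a log scale for the 10 blood transcription factors in each tumor EC library (points), with group means as bars, for KO (n = 3) and WT (n = 6). The groups overlap for each of the 6 tested genes, and *Gata1*, *Klf1* and *Myb* lie at or near 0 CPM.

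*Tal1* was the member closest to a difference. It had 30.1, 57.5 and 31.3 CPM in the KO libraries, and 9.90 (lowest), 19.8 (median) and 31.1 CPM (highest) in WT. KO replicate 1 lay within the WT range, KO replicate 3 just above it and KO replicate 2 well above it. The log2 fold change was 0.96 (SE 0.48, edgeR adjusted p = 1.00), and the exact two-sided permutation p of the log2(CPM + 1) means was 0.0476 before correction for the 10 members tested. Without KO replicate 2 the log2 fold change was 0.59. The 12 endothelial markers were higher in value in KO as well, the median log2 fold change being 0.36. As a percent of their sum *Tal1* ranged from 0.224% to 0.427% in KO and from 0.136% to 0.306% in WT.

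By the ratio of highest to lowest value, *Lmo2* varied most among the KO libraries of the well-expressed members. It had 151, 201 and 20.2 CPM in KO, and 57.3 (lowest), 119 (median) and 144 CPM (highest) in WT. KO replicate 3 fell below every WT library and the other KO libraries above every one, so the log2 fold change of 0.19 (SE 0.52) had no stable sign and turned to −0.35 without KO replicate 2. *Gata2* had 66.4, 139 and 73.7 CPM in KO, and 34.6, 52.7 and 94.9 CPM in WT as lowest, median and highest. KO replicate 2 was again the highest library (log2 fold change 0.69, SE 0.38), and without it the value was 0.27. *Hhex* had 37.0, 58.8 and 31.4 CPM in KO, and 7.72, 16.8 and 55.0 CPM in WT as lowest, median and highest. It spread widely among the WT libraries (log2 fold change 0.68, SE 0.60), and the value was 0.36 without KO replicate 2 and 1.03 without WT replicate 1.

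*Runx1* and *Spi1* were lower in value in KO. *Runx1* had 24.6, 9.08 and 3.41 CPM in KO, and 14.1 (lowest), 28.7 (median) and 42.3 CPM (highest) in WT. KO replicate 1 lay inside the WT range and the other KO libraries below it (log2 fold change −1.19, SE 0.63, exact two-sided permutation p = 0.0714 before correction). The *Runx1* value was −2.17 without KO replicate 1 and −0.75 without KO replicate 3. *Spi1* had 7.31, 0 and 1.22 CPM in KO, and 0.695, 6.52 and 23.6 CPM in WT as lowest, median and highest (log2 fold change −1.58, SE 1.38). The *Spi1* value was −3.80 without KO replicate 1, −0.98 without KO replicate 2 and −0.92 without WT replicate 4. Leukocyte genes varied between the same libraries. All 15 were tested, 0 were called by edgeR, 0 had p under 0.05 before adjustment, and their sum ranged from 92.2 to 1662 CPM in KO and from 102 to 928 CPM in WT. The sum did not order the libraries as *Spi1* did. KO replicate 2, with no *Spi1* count, had the lowest sum and WT replicate 4, the highest in *Spi1*, the highest sum of the WT libraries, but KO replicate 1 had the highest sum of all at 7.31 CPM of *Spi1*, and WT replicate 6 the lowest WT sum at 9.33 CPM. Granulocyte genes summed to 0.487 to 9.01 CPM in KO and 3.25 to 23.4 CPM in WT, with 0 of 4 tested genes called and 3 lower in KO at p under 0.05 before adjustment. Lymphocyte genes summed to 26.7 to 108 CPM in KO and 0.174 to 14.1 CPM in WT, with 0 called and the only tested gene, *Cd2*, higher in KO before adjustment (log2 fold change 6.02, edgeR adjusted p = 0.197). The sort excluded cells with the leukocyte protein CD45, and the part of these genes in the *Spi1* and *Runx1* values was not tested.

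The red cell and progenitor factors had too few counts in tumor ECs to be tested. *Gata1* had no count in the KO libraries and 1 count in all WT libraries together. *Myb* had 7 counts in KO replicate 1 and at most 3 in any other library, and *Klf1* had 5 counts in KO replicate 1 and at most 4 elsewhere. *Gfi1b* had 73 counts in KO replicate 3, 13 in WT replicate 2, 1 in WT replicate 6 and 0 in the other libraries. The erythroid list summed to 0.774 to 26.0 CPM in KO and 2.83 to 26.4 CPM in WT, with 0 of 3 tested genes called by edgeR and 0 at p under 0.05 before adjustment.

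Per kilobase of transcript, using the lengths given with the sprout libraries, *Lmo2* led in WT tumor ECs with 69.9 ± 25.2 CPM per kb (SD, n = 6). It did not overlap with *Gata2* (17.8 ± 6.68). *Gata2*, *Hhex* (15.0 ± 11.95), *Spi1* (6.31 ± 6.03), *Tal1* (4.82 ± 1.98) and *Runx1* (3.98 ± 1.51) each overlapped with the next in order. In KO the order began with *Lmo2* (79.9 ± 60.1, n = 3), *Gata2* (28.7 ± 12.4), *Hhex* (23.96 ± 8.17) and *Tal1* (9.40 ± 3.67).

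No partner gene was called in tumor ECs. Of 15 tested, 0 were called by edgeR, DESeq2 or limma voom, and 0 had p under 0.05 before adjustment. In value 6 were lower and 9 higher, and the median of their log2 fold changes was 0.11, with a range from −1.12 (*Cebpa*, SE 1.61) to 0.62 (*Lyl1*, SE 0.88). *Ets1* was at 423 ± 147 CPM in KO and 346 ± 101 CPM in WT, *Fli1* at 235 ± 103 and 218 ± 70.8 CPM, and *Sox17*, an endothelial gene of arteries and hemogenic endothelium, at 159 ± 22.3 and 168 ± 56.9 CPM (SD, n = 3 and 6).

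The genes most like each tested member across the 9 tumor libraries were found among 13067 genes by Pearson's r of log2(CPM + 1). For *Tal1* this was *Zfp212* (r = 0.95, Spearman's rho = 0.95), for *Lmo2* *Rabggta* (r = 0.96, rho = 0.92), for *Gata2* *Cstf2t* (r = 0.96, rho = 0.93), for *Runx1* *Rbp4* (r = 0.95, rho = 0.97), for *Hhex* *Efcab12* (r = 0.97, rho = 0.98) and for *Spi1* *Vil1* (r = 0.94, rho = 0.98). The values of a pair share library, depth and capture, and the best of so many genes over 9 libraries is high by choice, so these are descriptions only.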

How the data were processed

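RNA was sequenced as 50-bp single-end reads from 9 tumor EC and 4 sprout EC libraries. For tumor ECs the deposited values are raw read counts per gene. The study's methods name STAR 2.6c and featureCounts (Subread 1.6.2), and the submitters' processing notes also list Bowtie2 and Trim Galore. For sprout ECs the authors deposited HTSeq 0.6.1p1 counts after STAR 2.5.0a alignment to mm10, and RSEM 1.2.25 tables of expected counts, TPM and FPKM. Deposited TPM values were used for levels between genes, expected counts (rounded) as an alternative, and FPKM not at all. HTSeq set aside alignments as not unique (42.6% to 49.6% of its records) or in no feature (8.90% to 11.98%), and these entered no library size.

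Counts were tested with edgeR 4.0.16 (R 4.3.3): genes passing filterByExpr (minimum count 10), TMM scaling, robust quasi-likelihood fit, Benjamini-Hochberg adjustment over all genes of the set, and calls at adjusted p under 0.05 with an absolute log2 fold change above 1, KO over WT and STOP over GO apart. CPM values use TMM library sizes. The filter used the size of the smallest group, so a gene expressed in a single group can pass through it. DESeq2 1.42.0, limma 3.58.1 (voom with quality weights), other filters and scalings, a replicate block and leaving out each library were alternatives. Single values were compared by exact permutation over samples. The script was tested on simulated data.

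The members, gene lists and tests were chosen with earlier results of these data known. Named were all 10 members and, of the other lists, called genes (at most 6 a list, by p), *Pecam1*, *Eng*, *Apln*, the highest gene of a list, and the genes most like each member. *Ldb1*, *Tcf3*, *Cbfb*, *Etv2*, *Etv6*, *Zfpm1*, *Cebpa*, *Cd2*, *Itga2b*, the globins, tumor partners and *Ptprc* were named for their known roles after their values were seen. Some called list genes are not reported here.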

Additional observations from a re-analysis of the deposited data

Results flagged for a closer look

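Among 24 sets of values from the 6 WT tumor libraries that were screened for a library far from the others, 5 held one. The usual rate of about 1 in 20 assumes normally spread values. It does not apply to counts that are mostly 0, such as those of *Gata1* and *Gfi1b*, so the 5 were not weighed against chance. *Gata1* was at 0.141 CPM in WT replicate 6 and at 0 in the other WT libraries, which is a single count. *Gfi1b* was at 1.27 CPM in WT replicate 2, with the next WT library at 0.141 CPM. The megakaryocyte and platelet list summed to 96.5 CPM in WT replicate 3, with the next library at 27.0 CPM. The leukocyte and macrophage list summed to 928 CPM in WT replicate 4, with the next at 268 CPM, and this library also had the highest *Spi1* value. The mural and fibroblast list summed to 4124 CPM in WT replicate 2, with the next at 295 CPM. No member was called in tumor ECs when each of these libraries was left out in turn.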

How the results depend on the processing

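Of the members' log2 fold changes under the alternatives, 91 of the sprout values kept direction and side of the thresholds. In the same direction 8 lost a call and 4 gained one, and 5 turned. Among those that turned, all under endothelial scaling, *Runx1* and *Hhex* also lost their calls and *Gata2* gained one. In tumor ECs 92 kept both and 4 turned. *Tal1* was called in sprouts under each alternative except scaling to the endothelial list. That scaling, added after the data were seen, took the sprout members called lower from 4 to 0 and higher from 0 to 2, all genes lower from 441 to 17 and higher from 124 to 12430, partners lower from 8 to 0 and higher from 0 to 9, blood lists lower from 5 to 2 and higher from 0 to 14, and endothelial genes lower from 11 to 0. It turned *Gata1* to 0.31, *Gata2* to 1.03, *Runx1* to 0.051, *Hhex* to 0.13 and *Klf1* to 0.77, all below the 1.74 by which it moved the median of all genes, so these turns are not particular to the members. Leaving out 1 sprout library gave 2 to 4 members lower (2 without STOP replicate 1), 135 to 548 genes lower (135 without GO replicate 1 and 136 without STOP replicate 1), 12 to 341 higher (12 without STOP replicate 1, 19 without GO replicate 1 and 341 without GO replicate 2), 3 to 8 partners lower (3 without GO replicate 1, 5 without STOP replicate 1), 0 to 5 blood genes lower and 7 to 11 endothelial genes lower. Sprout genes called higher numbered 198 with DESeq2, 222 without the filter on low counts and 279 without the fold threshold. Blood list genes called lower numbered 12 without the filter and 3 with rounded RSEM counts. In tumor ECs all genes lower went from 1 to 97 with DESeq2, 7 without the filter and 1 to 2 with a library left out (2 without KO replicate 1). Genes higher went from 0 to 19 with DESeq2, 9 without the filter and 1 with limma voom. Blood list genes lower went from 0 to 2 with DESeq2, and higher from 0 to 1 with DESeq2, 2 without the filter and 1 with voom. Tumor *Lmo2* (0.19) turned to −0.50 with voom, −0.14 with endothelial scaling, and ranged from −0.35 (without KO replicate 2) to 0.70 (without KO replicate 3). The causes of these shifts were not tested. *Gfi1b* in sprouts and *Gata1*, *Klf1*, *Gfi1b* and *Myb* in tumors did not pass the filter on low counts. A left-out sprout library leaves an arm of 1, assumed to vary like the other.

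Replicate numbers did not pair the samples: deviations of same-numbered libraries correlated at −0.0709, 0.0574 and −0.140 in tumors and at −0.434 in sprouts. With 2 sprout libraries per group, crossed numbers give the same value with the opposite sign. STOP and GO libraries of different numbers thus shared variation that the main fit does not model, and its cause was not tested. With the replicate block, sprout calls were 1 member lower (*Tal1*; *Lmo2* at −2.30, adjusted p = 0.0548, *Runx1* at −1.66, 0.0864, and *Hhex* at −1.59, 0.0615, did not pass), 41 genes lower and 3 higher, 2 partners, 0 blood list genes and 6 endothelial genes lower. Tumor genes lower were 2 with the block, and *Lmo2* turned to −0.23. With the sprout numbers crossed, an alternative added after the data were seen, 933 genes were lower and 302 higher, with 6 members, 10 partners and 12 blood list genes lower.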

Other observations

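The progenitor surface list holds several genes that are also endothelial. In tumor ECs, of the 8, 6 were tested and 0 were called by edgeR, 0 had p under 0.05 before adjustment, and 3 were lower and 3 higher in value. *Ly6a*, encoding Sca-1, was at 2339 ± 286 CPM in KO and 2867 ± 1374 CPM in WT (SD, n = 3 and 6), against 1.46 CPM in STOP and 1.5 CPM in GO sprout ECs. *Cd34* was at 881 ± 70.6 CPM in KO and 834 ± 250 CPM in WT. *Kit*, the stem cell factor receptor, was at 93.1 ± 13.7 and 101 ± 45.4 CPM in tumor ECs, and in sprouts at 119 CPM in STOP and 193 CPM in GO (log2 fold change −0.70, SE 0.15, edgeR adjusted p = 0.0337), short of the fold threshold. The 2 sets were sequenced and counted separately, so levels between them were not tested.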
